A study of Mus musculus with 7 samples.

Results

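The genes considered here code for the nuclear part of oxidative phosphorylation. They are the protein-coding genes on nuclear chromosomes of the GENCODE M21 annotation whose symbols begin with Nduf followed by a, b, c, s or v, with Uqcr, with Cox4 to Cox8 or with Atp5, together with Sdha to Sdhd. The symbols chose 94 genes. No measured value entered this rule, although it was set with earlier results of these data known. Of these, 87 had an accessible region within 200 bp of an annotated transcription start site (TSS), and they held 91 of the 15422 promoter regions and of the 55680 regions in all. Accessibility was measured by ATAC-seq, in which a transposase inserts sequencing adapters into exposed DNA, in liver nuclei of C57BL/6N mice. The groups were 3 libraries from mice aged 3 months (young) and 4 libraries from mice aged 18 months (aged), which the study's methods describe as males, with no treatment or transgene in either group. The aged libraries came from 3 animals, 1 of which was sampled in 2 liver lobules, which the study counts as 4 biological replicates, and the labels do not say which libraries share that animal. The p-values therefore treat as separate 2 libraries of the same mouse. Genes were put in complexes by symbol, so Ndufa4 and Ndufa4l2, whose products are assigned to complex IV, are counted with complex I. Likewise Atp5s, which RefSeq names Dmac2l, is counted with complex V by its symbol alone.

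The respiratory chain passes electrons from NADH through complex I, or from succinate through complex II, by way of coenzyme Q to complex III, and then by way of cytochrome c to complex IV, where oxygen is reduced. Complexes I, III and IV pump protons across the inner mitochondrial membrane, and complex V, the ATP synthase, uses the gradient to make ATP. Mitochondrial DNA codes for a few subunits of complexes I, III, IV and V, whereas all other subunits, and all of complex II, are coded by nuclear genes scattered over the chromosomes. Hepatocytes are rich in mitochondria and use these complexes for gluconeogenesis, ureagenesis and fatty acid oxidation. Nuclear genes of the chain are commonly described as targets of the factors NRF1 and GABP, the latter of the ETS family, and of YY1 and the estrogen-related receptors.

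Short sequences that the symbols did not use were counted in the promoters of these genes. The RefSeq promoter sequences (GRCm38.p6, 250 bases before to 50 bases after the start site) held an entry for 76 of the 94 genes, and in 73 of these the start site lay in one of the 91 regions. The NRF1 core GCGCATGC, searched on both strands, was present in 12 of 73 promoters (16.4%) and in 3.60% of the 17491 protein-coding promoters of the same length. Windows of at most 30 bases around the core are shown for a member of each complex and for an assembly factor, with the core in capitals. Where the capitals run over 10 bases, the core matched on both strands and the matches overlap.

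Ndufa11, complex I, chr17:56717692-56717721, plus strand: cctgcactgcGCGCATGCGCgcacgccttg

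Ndufaf4, complex I assembly, chr4:24897960-24897989, plus strand: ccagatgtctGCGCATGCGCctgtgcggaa

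Sdhb, complex II, chr4:140961207-140961234, plus strand: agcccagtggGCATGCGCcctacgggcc

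Uqcr11, complex III, chr10:80406808-80406835, minus strand: tcgccttcacGCATGCGCtatacgtctg

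Cox6a1, complex IV, chr5:115349101-115349130, minus strand: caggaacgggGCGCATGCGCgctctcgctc

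Atp5k, complex V, chr5:108434430-108434459, minus strand: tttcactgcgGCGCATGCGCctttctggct

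The first base of the first match lay 60 bases before the start site in Ndufa11, 113 in Ndufaf4, 54 in Sdhb, 4 in Uqcr11, 162 in Cox6a1 and 50 in Atp5k. The other carriers were Atp5g2, Atp5l, Ndufa6, Ndufa8, Ndufaf5 and Uqcrc1. The ETS core CCGGAAG was found in 17 of 73 promoters (23.3%) against 11.9% of all, the YY1 core ATGGCGG in 11 (15.1%) against 5.41%, and the estrogen-related receptor core AAGGTCA in 8 (10.96%) against 4.08%. The SP1 box GGGCGGG was in 26 promoters (35.6%) against 34.0%, and CCAATC, bound by NFY, in 16 (21.9%) against 18.8%. The TATA motif TATAAA was in 5 (6.85%) against 13.3%, and the cAMP response element TGACGTCA was present in 4 (5.48%) against 2.34%. At least 1 of the NRF1, ETS and YY1 cores was present in 34 of the 73 promoters, so most held none of the 3. These shares were not tested. The promoters compared with the 73 were not limited to accessible regions, and the part of accessibility in the gaps was not tested. A match describes letters in this window and not a bound site.

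**Figure D1:**
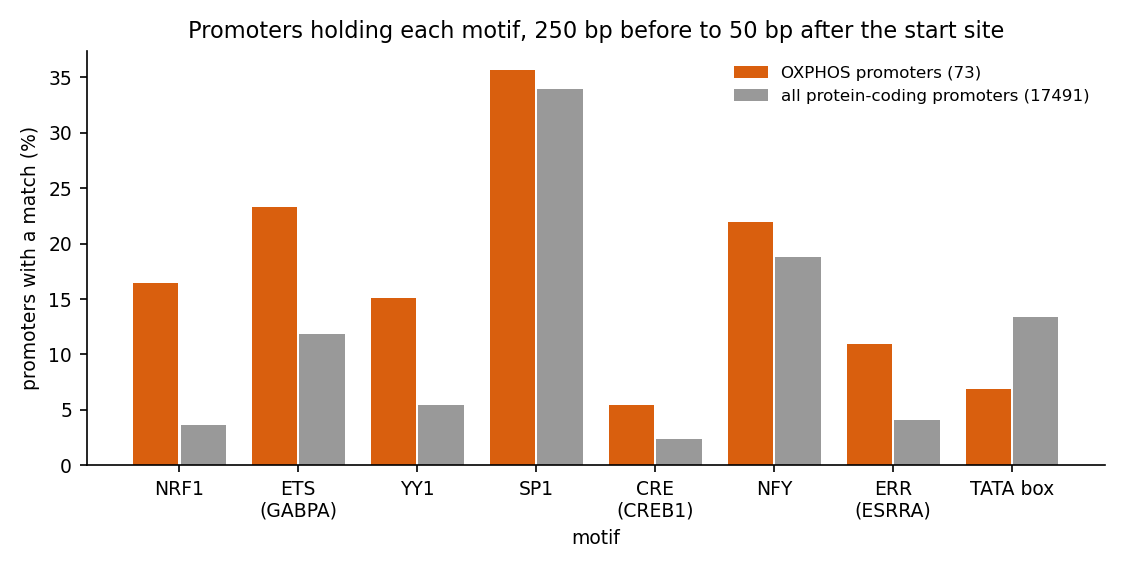
Share of promoters, in percent, that hold each of 8 motifs on either strand, for the 73 OXPHOS promoters (orange) and the 17491 protein-coding promoters (grey). The bars for NRF1 stand at 16.4% and 3.60%, and those for SP1 at 35.6% and 34.0%. Only the OXPHOS promoters were limited to accessible regions.

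Some members also had a close neighbour. In 34 of the 91 regions (37.4%) the same region also held the TSS of a protein-coding gene outside the set, in each case with at least 1 such gene on the opposite strand, whereas 10.1% of the 13711 promoter regions of protein-coding genes held more than 1 such gene. Atp5j, a subunit of the ATP synthase stalk, shared its region with Gabpa, which codes for the DNA-binding subunit of GABP. Ndufb5 and Ndufs6 shared theirs with the mitochondrial ribosomal protein genes Mrpl47 and Mrpl36, Sdhd with Timm8b, a mitochondrial import chaperone, and Ndufa7 with Rps28. A count in such a region cannot be assigned to 1 of the 2 genes. The regions had a median width of 1303 bp (1233 bp over all promoter regions), a median GC content of 54.9% (57.2%), and a median observed to expected CpG ratio of 0.69 (0.65). None of the 91 had another place in the genome that covered at least 80% of it at 95% identity, the mark of a near-identical copy.

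OXPHOS promoters were strongly accessible in both ages. Levels are given as CPM (counts scaled to a fixed library total) after TMM scaling, which sets the library sizes so that the bulk of regions is level between libraries, and as CPM per kb of region where regions are compared. When the 55680 regions were split into 10 groups of equal size by mean log2 CPM (deciles), 76 of the 91 regions (83.5%) lay in the 3 strongest deciles, as did 63.9% of all promoter regions, and 25 (27.5%) lay in the strongest decile, as did 29.4%. The median over regions was 23.9 CPM per kb, against 20.9 over all promoter regions. By complex it was 29.4 for complex V, 23.9 for III, 23.3 for II, 22.5 for the complex I assembly factors, 22.4 for IV and 21.8 for complex I subunits. The range within each complex was wider than these gaps, from 6.90 to 59.1 CPM per kb within complex I and from 5.19 to 46.3 within complex IV. The 7 libraries held 4474652 to 25461110 counts in regions, and counts in a single OXPHOS region ran from 6 to 2589 with a median of 266.

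The first comparison asked whether accessibility at these promoters differed between young and aged liver. Under edgeR's quasi-likelihood test with Benjamini-Hochberg adjustment over all 55680 regions, 2 of the 91 regions rose in aged liver, at Ndufa4 and Ndufv3 (2.198%), and 1 fell, at Cox6b2 (1.10%). Among all promoter regions 4.48% rose and 2.06% fell. These are small counts, and with TMM computed from promoter regions the same 2.198% of OXPHOS regions stood against 1.85% of promoter regions that rose. At an unadjusted p under 0.05, 18 regions (19.8%) were higher and 5 (5.49%) lower, against 23.0% and 9.13% of promoters in general. The median log2 fold change over the 91 regions was 0.09, the same to 2 decimals as over all promoter regions, against -0.04 over all regions, and 61 of 91 values (67.0%) were above 0, against 61.1% of all promoter regions. These medians depended on the scaling. With total counts in regions in place of TMM, which lowered the median of all regions by 0.12, the OXPHOS median was -0.03 and the promoter median -0.03, and with offsets fitted on mean abundance they were -0.05 and -0.03. In bulk tissue, a change in accessibility per cell and a change in the share of a cell type cannot be told apart.

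Ndufa4, named for complex I but now regarded as a subunit of complex IV, had the largest increase. Its region (GRCm38, chr6:11906846-11908321) spans the start of the gene on the minus strand and also the TSS of Phf14 on the other strand. The young libraries gave 50.4, 44.8 and 37.8 CPM and the aged libraries 71.5, 54.3, 60.2 and 74.1 CPM. Every aged library was above every young one, with aged replicate 2 the nearest to the young group. The means were 44.4 ± 6.33 CPM (SD, n = 3) and 65.0 ± 9.33 CPM (SD, n = 4), a 1.47-fold increase (log2 fold change 0.55, SE 0.14, edgeR adjusted p = 0.034). None of the 8 motifs occurred in the 300 bases of its RefSeq promoter. The stretch from 150 to 35 bases before its start site is printed because this promoter rose most.

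Ndufa4, chr6:11907485-11907600, minus strand: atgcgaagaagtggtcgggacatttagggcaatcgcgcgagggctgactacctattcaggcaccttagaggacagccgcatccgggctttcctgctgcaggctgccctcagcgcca

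Ndufv3 codes for an accessory subunit of the NADH-oxidising arm of complex I. Its region (chr17:31519519-31520960) also holds the start of Wdr4, a subunit of a tRNA methyltransferase, on the opposite strand. Counts gave 46.7, 41.3 and 42.1 CPM in young and 62.8, 55.1, 58.4 and 68.6 CPM in aged liver. The young libraries lay close together and all 4 aged libraries lay above them. Young libraries averaged 43.4 ± 2.92 CPM (SD, n = 3) and aged libraries 61.2 ± 5.84 CPM (SD, n = 4), a 1.42-fold increase, with a log2 fold change of 0.50 (SE 0.12, edgeR adjusted p = 0.026). The 150 bases before the start site are printed, with an SP1 box in capitals.

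Ndufv3, chr17:31519965-31520114, plus strand: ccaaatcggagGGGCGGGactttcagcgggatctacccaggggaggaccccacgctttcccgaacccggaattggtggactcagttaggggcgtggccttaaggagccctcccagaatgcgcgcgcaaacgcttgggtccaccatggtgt

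Cox6b2, the testis form of a complex IV subunit whose general form is Cox6b1, was the only member that fell under this test. Its region (chr7:4752343-4752990) lies inside the gene, over exons and introns close to several alternative start sites, and is the weakest of the set per kb. The libraries gave 6.20, 4.88 and 4.44 CPM in young and 1.93, 2.16, 1.40 and 2.55 CPM in aged liver, from raw counts of 67, 129 and 27 and of 22, 11, 6 and 20. All aged libraries were below all young ones. The mean went from 5.17 ± 0.92 to 2.01 ± 0.48 CPM (SD, n = 3 and 4), a log2 fold change of -1.34 (SE 0.28, edgeR adjusted p = 0.020). Cox6b1, the form used in liver, gave 17.2, 18.6 and 14.96 CPM in young and 19.2, 16.9, 18.2 and 16.5 CPM in aged liver. Its groups overlapped and it did not pass the test (log2 fold change 0.05, SE 0.15, adjusted p = 0.86).

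The 3 calls were sensitive to how the counts were scaled and to single libraries. With edgeR and offsets fitted on mean abundance none of the 91 passed (13 were at an unadjusted p under 0.05, and 0.188% of all promoter regions rose), at adjusted p = 0.21 for Ndufa4, 0.21 for Ndufv3 and 0.092 for Cox6b2, although the directions were kept, with log2 fold changes of 0.32, 0.27 and -1.03. When each library was left out in turn, Ndufa4 passed in 2 of 7 fits and Ndufv3 and Cox6b2 in 3 of 7, and none of the 3 passed without young replicate 1, young replicate 2, aged replicate 1 or aged replicate 3. Those 4 fits called 188, 446, 402 and 651 of all 55680 regions, against 3198 with all libraries. Ndufa4 was also lost without young replicate 3 and with total counts (adjusted p = 0.056). Since 2 aged libraries are of the same mouse, each pair of aged libraries was also summed to 1. None of the 3 passed with aged replicates 1 and 3 summed (adjusted p = 0.071 for Ndufa4, 0.060 for Ndufv3 and 0.051 for Cox6b2), Ndufa4 was lost also with replicates 1 and 4 summed (0.056), and all 3 passed with each of the 4 other pairs. With DESeq2, the tool of the study's methods, 8 members rose: Ndufa4, Ndufv3, Ndufa11, Ndufaf8, Ndufaf4, Uqcrq, Atp5g1 and Atp5s, with adjusted p between 0.0046 and 0.042, and Cox6b2 fell (adjusted p = 0.0095). That is 8.79% of the OXPHOS regions, against 10.01% of all promoter regions that rose with the same tool, while 2.22% of promoter regions fell.

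**Figure D2:**
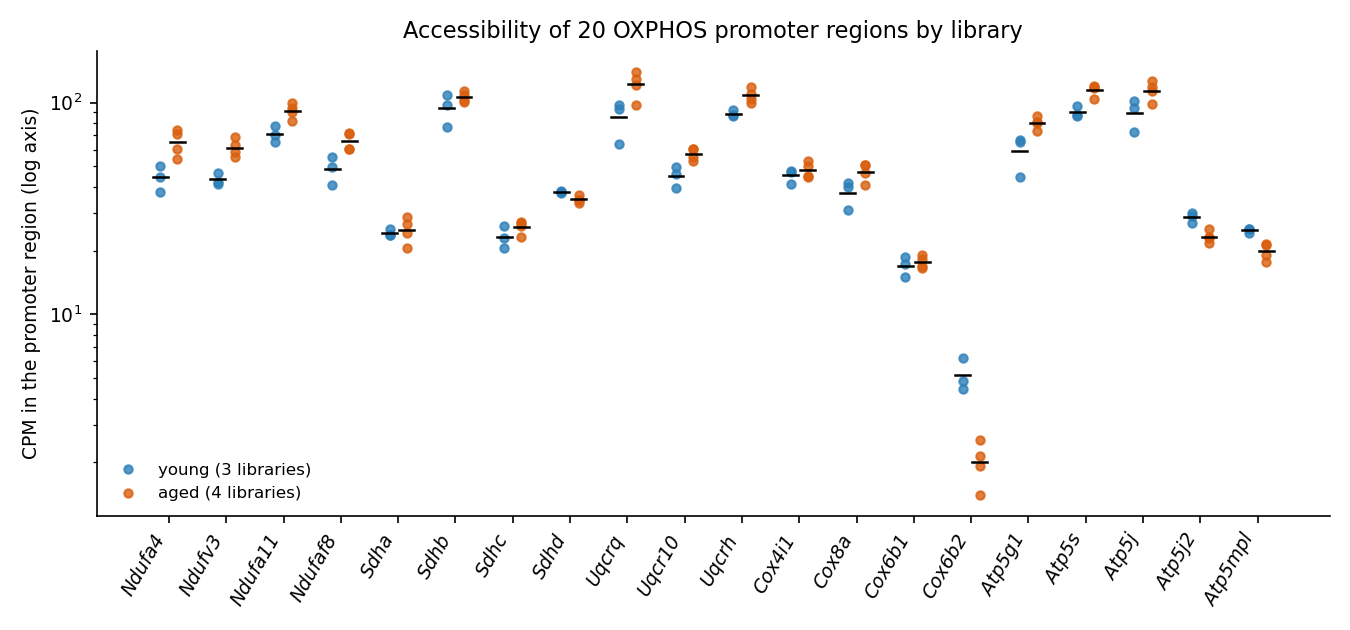
CPM (log axis) in 20 OXPHOS promoter regions, with a point for each young (blue) and aged (orange) library and a bar at the mean of each group. Ndufa4 and Ndufv3 are higher and Cox6b2 is lower in all 4 aged libraries, whereas the groups overlap at Sdha, Cox4i1 and Cox6b1.

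In 13 of the 91 regions (14.3%) every aged library was above every young one, against 20.4% of all promoter regions, and in 7 (7.69%) every aged library was below, against 8.88%. The 13 were Ndufa4, Ndufv3, Ndufa11, Ndufb11 and Ndufv2, counted with complex I, the assembly factors Ndufaf8 and Ndufaf4, Uqcrq, Uqcr10 and Uqcrh of complex III, and Atp5g1, Atp5s and Atp5b of complex V. The 7 below were Ndufb8, Ndufb6, Ndufa9, Sdhd, Cox6b2, Atp5j2 and Atp5mpl. Both counts moved with the scaling. With total counts in regions they were 6 and 14 (6.59% and 15.4%, against 10.3% and 14.7% of promoter regions), with abundance offsets 2 and 15 (2.198% and 16.5%, against 5.38% and 9.23%), and with offsets fitted on GC content 23 and 4 (25.3% and 4.40%, against 27.3% and 7.05%). The share above was under that of promoter regions in each of these, whereas the share below was under it or over it depending on the scaling.

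Complex I, the NADH dehydrogenase, has a set of core subunits conserved from bacteria and a larger set of accessory subunits. Of the 38 genes with a complex I subunit symbol, Ndufa4 among them, 37 had a region. Log2 fold changes of the 39 regions ran from -0.57 to 0.55 around a median of 0.08, and 23 were above 0. Ndufa11, a membrane subunit, had the strongest promoter of the complex at 59.1 CPM per kb. It gave 77.2, 70.4 and 64.9 CPM in young and 94.4, 81.8, 90.8 and 99.9 CPM in aged liver, and its difference missed the threshold (log2 fold change 0.37, SE 0.11, edgeR adjusted p = 0.065). Ndufa9, an accessory subunit at the junction of the arms, had the lowest value. It gave 10.2, 11.04 and 13.3 CPM in young and 8.35, 8.24, 9.57 and 5.09 CPM in aged liver, which did not overlap but did not pass (log2 fold change -0.57, SE 0.23, adjusted p = 0.14). Ndufa1, on the X chromosome, was the weakest at 6.90 CPM per kb, with a log2 fold change of -0.11 (SE 0.20, adjusted p = 0.79).

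The 8 complex I assembly factors of the Ndufaf series, which help to build the complex without staying in it, centred on a log2 fold change of 0.07 (median), and 6 of 8 values were above 0. None was called with edgeR. Of the 8, 2 were higher at an unadjusted p under 0.05, and both rose with DESeq2, against 23.0% and 10.01% of promoters in general. Ndufaf8 was both the strongest per kb (45.0) and the one with the largest value. Its libraries gave 49.9, 55.4 and 40.9 CPM in young and 71.2, 60.4, 60.7 and 72.2 CPM in aged liver, with no overlap (log2 fold change 0.43, SE 0.13, edgeR adjusted p = 0.058). Ndufaf6 had the lowest value, -0.12 (SE 0.11, adjusted p = 0.53), and Ndufaf1 the weakest region, at 12.1 CPM per kb (log2 fold change 0.09, SE 0.26, adjusted p = 0.86).

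Complex II, succinate dehydrogenase, links the chain with the citric acid cycle and has 4 subunits. Sdha carries the flavin, Sdhb the iron-sulfur clusters, and Sdhc and Sdhd anchor them in the membrane. Sdha gave 25.5, 23.7 and 23.8 CPM in young and 28.9, 20.6, 26.8 and 24.3 CPM in aged liver. Sdhb gave 108, 97.9 and 77.0 CPM against 103, 101, 109 and 114 CPM. Sdhc gave 20.6, 23.0 and 26.3 CPM against 27.3, 26.1, 23.1 and 27.1 CPM. The groups overlapped at all 3, and none passed (edgeR log2 fold changes 0.05, 0.17 and 0.17, adjusted p = 0.85, 0.41 and 0.49). Sdhd was at 38.3, 37.3 and 37.8 CPM in young and 36.7, 33.7, 34.8 and 34.6 CPM in aged liver. It was lower in all 4 aged libraries by a small margin, which did not pass (log2 fold change -0.11, SE 0.11, adjusted p = 0.57). Per kb, Sdhb stood highest at 33.5, and Sdhd (24.9), Sdha (21.6) and Sdhc (21.1) followed. No complex II region was at an unadjusted p under 0.05, and none passed with DESeq2. The ranges of Sdha and Sdhc over the 7 libraries, 18.0 to 25.2 and 17.5 to 23.2 CPM per kb, overlapped.

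Complex III, the cytochrome bc1 complex, had the highest median log2 fold change of the 6 classes with TMM scaling, 0.17 over 8 regions, of which 6 were above 0 and none was called with edgeR. At an unadjusted p under 0.05, 3 of 8 were higher, against 23.0% of all promoter regions, and 1 rose with DESeq2, against 10.01%. Uqcrq, a small subunit, led it. Its libraries gave 97.5, 93.8 and 64.1 CPM in young and 130, 97.7, 121 and 140 CPM in aged liver, so that young replicate 3 was low and aged replicate 2 was just above young replicate 1. The difference missed the threshold (log2 fold change 0.52, SE 0.16, edgeR adjusted p = 0.064). Uqcr10 and Uqcrh, also small subunits, were higher in all aged libraries, with log2 fold changes of 0.35 (adjusted p = 0.085) and 0.29 (adjusted p = 0.12). The core protein gene Uqcrc1 had the lowest value, -0.04 (SE 0.13, adjusted p = 0.87), and the Rieske protein gene Uqcrfs1 was at 0.17 (adjusted p = 0.45). Uqcr11, with the NRF1 core shown above, was the weakest at 13.7 CPM per kb. With offsets fitted on mean abundance the complex III median was 0.01.

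Complex IV, cytochrome c oxidase, has pairs of isoforms for several subunits, and most promoters without an accessible region belonged to them. No region lay at Cox4i2, the lung and hypoxia form, Cox6a2 and Cox8b, the heart and muscle forms, Cox7b2 and Cox8c, known from testis, or Ndufa4l2, a hypoxia-induced relative of Ndufa4. The other gene without a region was the second of the 2 annotated genes named Atp5o. A region entered the deposited set only where peaks were called in more than 1 library, so a promoter without a region has no measured level here, not a level of 0. Their partners were open: Cox8a stood at 46.3, Cox4i1 at 41.6 and Cox6a1 at 15.9 CPM per kb. Cox7a1, the heart and muscle form, did have a region at 21.8 CPM per kb, with a range of 17.6 to 24.4 over the libraries that overlapped the 20.8 to 25.8 of the liver form Cox7a2. Cox7a2l, a factor of respiratory supercomplexes, had a strong region at 41.4 and a weak one at 5.82 CPM per kb, and Cox7b was at 11.7.

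Across the 14 regions of Cox genes the log2 fold change was 0.08 at the median and above 0 in 11, and apart from Cox6b2 none was called with edgeR or DESeq2. Of the 14, 2 were higher (14.3%, against 23.0% of all promoter regions) and 1, Cox6b2, was lower (7.14%, against 9.13%) at an unadjusted p under 0.05. With Ndufa4, which rose, added to them the median was 0.09, and 0.02 with offsets fitted on mean abundance. Cox8a had the largest value of the Cox genes. It gave 41.6, 39.9 and 31.1 CPM in young and 46.6, 40.8, 50.7 and 50.5 CPM in aged liver, where aged replicate 2 lay among the young libraries (log2 fold change 0.32, SE 0.13, edgeR adjusted p = 0.15). Among the isoforms, the log2 fold changes were 0.09 for Cox4i1 (adjusted p = 0.67), 0.04 for Cox6a1 (0.89), 0.07 for Cox7a1 (0.84), 0.18 for Cox7a2 (0.35) and 0.11 for Cox7b (0.81). The strong and weak Cox7a2l regions were at 0.26 (adjusted p = 0.20) and -0.24 (0.63).

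Complex V, the ATP synthase, had 18 regions, 12 with a log2 fold change above 0, and a median of 0.09. None was called with edgeR. At an unadjusted p under 0.05, 5 of 18 were higher (27.8%) and 2 lower (11.1%), near the 23.0% and 9.13% of all promoter regions, and 2 rose with DESeq2, against 10.01%. The membrane ring is made of a single protein coded by 3 genes, Atp5g1, Atp5g2 and Atp5g3. Atp5g1 gave 66.9, 65.4 and 44.4 CPM in young and 80.5, 73.7, 80.8 and 86.3 CPM in aged liver. All 4 aged libraries were higher, with young replicate 3 well below the other young libraries, and the difference missed the threshold (log2 fold change 0.44, SE 0.14, edgeR adjusted p = 0.073). Atp5g2 and Atp5g3 overlapped between ages, with log2 fold changes of 0.24 (adjusted p = 0.34) and 0.03 (0.92). Per kb, Atp5g1 (38.6) and Atp5g2 (36.2) had overlapping ranges, 24.1 to 46.8 and 29.2 to 48.1, and Atp5g3 was at 23.4. The lowest value of the complex was at Atp5mpl, a small membrane-bound subunit. It gave 25.4, 24.3 and 25.3 CPM in young and 21.3, 17.7, 21.5 and 19.1 CPM in aged liver, without overlap (log2 fold change -0.33, SE 0.14, adjusted p = 0.16). The short second region of Atp5b, the catalytic beta subunit, had the most signal per kb of all members, 71.9, and Atp5l the least of complex V, 14.3.

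**Figure D3:**
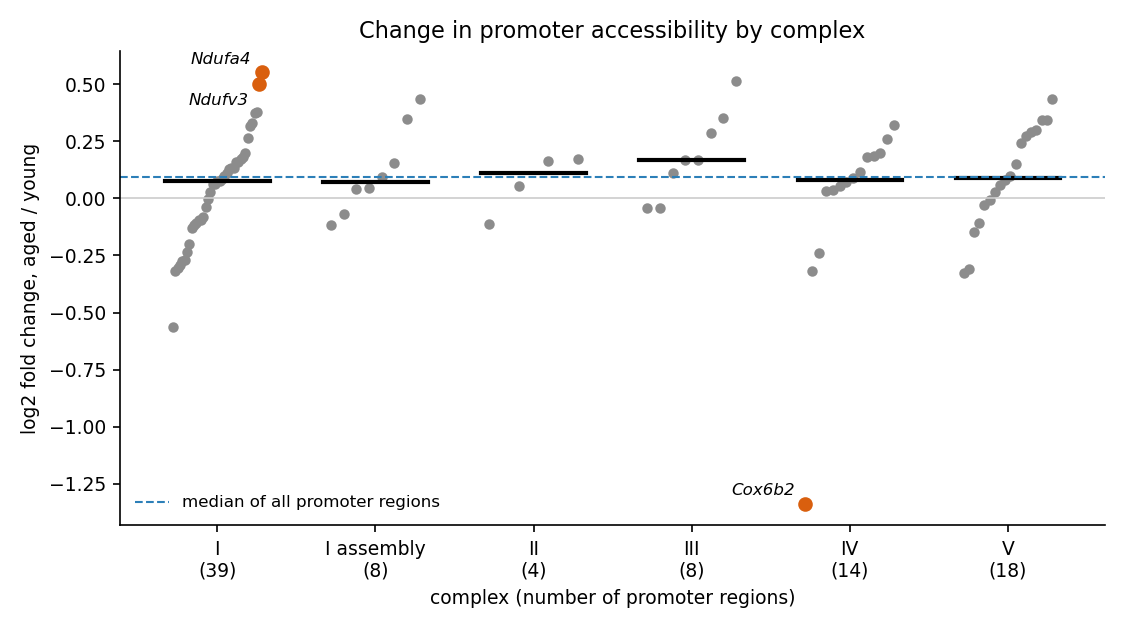
Log2 fold change of aged over young liver for each of the 91 OXPHOS promoter regions, ordered within each complex, with a bar at the median of the complex and a dashed line at the median of all promoter regions (0.09). With TMM scaling the complex medians run from 0.07 to 0.17, and the 3 regions with an adjusted p under 0.05 are in orange.

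Between complexes, medians differed by 0.10 at most. With total counts they ran from -0.05 in the assembly factors to 0.05 in complex III, and with offsets fitted on mean abundance from -0.09 in complex II to 0.01 in complexes III and IV. The median deviation of a complex from its young mean, on the log2 CPM scale, was computed in each library. For complex III it was 0.04, -0.01 and 0.00 in young and 0.26, 0.18, 0.31 and 0.05 in aged liver, so all aged libraries were higher, aged replicate 4 by little. The assembly factors were at 0.04, 0.01 and -0.04 in young and 0.17, 0.05, 0.16 and 0.04 in aged liver, and aged replicate 4 was barely above young replicate 1. For complex I it was 0.04, 0.02 and -0.04 in young against 0.11, 0.03, 0.13 and -0.02 in aged liver, and the ages overlapped. The ages overlapped also for complexes II, IV and V. The pooled SD between libraries of 1 age was 0.06 for complex I, 0.09 for complex III and 0.07 for complexes II, IV and V. Over all promoter regions it was 0.04, and the libraries stood at 0.03, 0.01 and -0.03 in young and 0.10, 0.04, 0.13 and 0.13 in aged liver, which did not overlap either. Aged replicate 4, high over promoters in general, stood at 0.00 for the median of all OXPHOS promoters. It was the lowest aged library at 33 of the 91 and the highest at 26. Among the 30 strongest it was the highest at 15 and the lowest at 7.

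**Figure D4:**
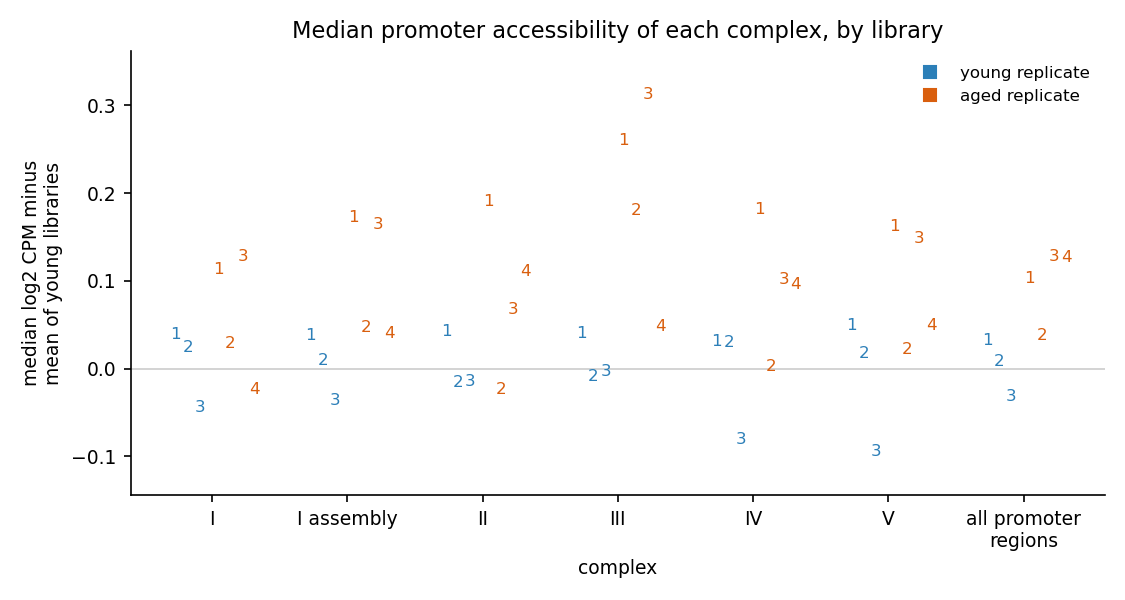
Median over the regions of each complex of the log2 CPM minus the mean of the young libraries, with the digit of each young (blue) and aged (orange) replicate. Complex III runs from -0.01 to 0.04 in young and from 0.05 to 0.31 in aged libraries, whereas complex I overlaps between the ages.

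The difference between ages followed the level of the promoter. Among the 30 strongest of the 91 regions the median log2 fold change was 0.28 and 28 of 30 values were above 0, among the 30 of middle strength it was 0.06 with 20 of 30, and among the 31 weakest it was -0.07 with 13 of 31. Of the 13 regions that were higher in every aged library, 12 were among the 30 strongest (40.0% of these), and of the 7 that were lower, 5 were among the 31 weakest (16.1%). Promoter regions in general were near these 2 shares. Of the 4502 within the range of the 30 strongest, 42.5% were higher in every aged library, and of the 6654 within the range of the 31 weakest, 16.4% were lower. In the middle range the shares differed. There 3.33% of OXPHOS regions were higher in every aged library against 19.6% of 2811 promoter regions, and 6.67% were lower against 2.70%. In the weakest range 0% were higher, against 4.18%. Across the 91 regions the log2 fold change and the mean log2 CPM had a Spearman rho of 0.66 (Pearson r 0.69), which describes regions that share the same 7 libraries. The same trend ran through all promoter regions, whose median log2 fold change was -0.53 in the weakest decile of regions and 0.28 in the strongest, where the OXPHOS median was 0.30. In the deciles next below, with 30, 21 and 8 OXPHOS regions, the OXPHOS medians were 0.08, -0.04 and -0.12. These lay under the promoter medians of 0.15, 0.02 and -0.07. The weaker deciles held at most 3 OXPHOS regions each and went both ways. The median absolute log2 fold change was 0.28 in the 30 strongest OXPHOS regions against 0.26 in promoter regions of that range of level, 0.11 against 0.16 in the middle range and 0.11 against 0.23 in the weakest. The weakest range reaches down to Cox6b2, at a mean log2 CPM of 1.67, below every other member. Many promoter regions in it were therefore weaker than most of its OXPHOS regions, so these comparisons are not at a like level. With offsets fitted on mean abundance, which remove a trend with mean log2 CPM, the median log2 fold changes of these 3 ranges of OXPHOS regions were 0.00, -0.09 and -0.08 from the strongest to the weakest, rho was 0.20, and 33 of 91 values (36.3%) were above 0, against 44.2% of all promoter regions. Against the level per kb, rho was 0.70 with TMM and 0.37 with the offsets, so a trend with level per kb was left. Among the 30 strongest regions, young replicate 3 was the lowest young library at 23 and aged replicate 2 the lowest aged library at 22. The part of these libraries in the trend was not tested.

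**Figure D5:**
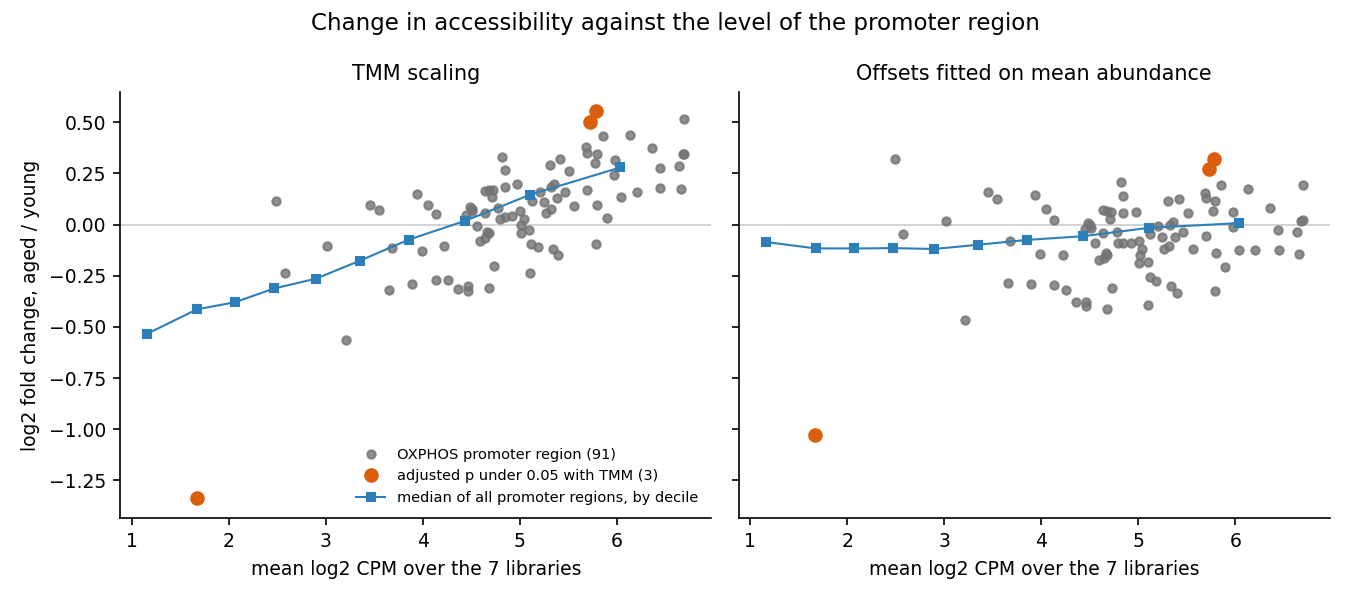
Log2 fold change of aged over young liver against the mean log2 CPM over the 7 libraries for the 91 OXPHOS regions (grey, with the 3 regions past the threshold in orange) and the median of all promoter regions in each decile of regions (blue), with TMM scaling on the left and offsets fitted on mean abundance on the right. With TMM the blue line climbs from -0.53 to 0.28 and the OXPHOS regions scatter about it, and with the offsets rho falls from 0.66 to 0.20.

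Other features of the promoter were compared without a test. The median log2 fold change was 0.08 in the 34 regions shared with another protein-coding gene and 0.09 in the other 57. Every aged library was above every young one in 9 of the 34 (26.5%) and 4 of the 57 (7.02%), against 20.4% of all promoter regions, and both edgeR gains lay in shared regions, whose median young level was higher, 37.5 against 28.1 CPM. The 12 promoters with the NRF1 core had a median of 0.04 and the 61 without it 0.10, the 17 with the ETS core 0.05 and the 56 without it 0.10, the 11 with the YY1 core 0.03 and the 62 without it 0.10, and the 26 with the SP1 box 0.17 and the 47 without it 0.08. Promoters with the SP1 box had a higher median young level, 39.5 against 26.9 CPM. With offsets fitted on mean abundance their order turned, with medians of -0.07 with the box and -0.04 without it. For the NRF1, ETS and YY1 cores the order was kept. GC content was unrelated to the change across the 91 regions with TMM (Spearman rho 0.03), and width was weakly related (rho 0.23). With offsets fitted on mean abundance rho was -0.12 for GC content and -0.10 for width. Ndufa7 and Cox7a2l each had 2 regions with values of opposite sign, and Atp5b had 2 positive ones, none of which passed the test.

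Away from promoters, 20 member genes held 23 further regions, of which 0 rose and 2 fell with edgeR, both at the 3′ end of Ndufb9, a complex I accessory subunit. Among all regions outside promoters 1.66% rose and 3.78% fell. At an unadjusted p under 0.05, 1 of the 23 was higher and 5 were lower, against 7.61% and 14.1% of all regions outside promoters. With DESeq2 0 rose and 2 fell, against 3.02% and 3.94%. Ndufb9 is named here because its values stood out. The larger region (chr15:58939212-58940972) covers the last exon and runs past the end of the gene at position 58939488. It gave 22.8, 33.6 and 19.4 CPM in young and 10.6, 17.7, 8.64 and 12.1 CPM in aged liver. All aged libraries were lower, aged replicate 2 the least, with a 0.48-fold level (log2 fold change -1.07, SE 0.23, edgeR adjusted p = 0.021), and with offsets fitted on mean abundance the call was kept (-1.09, adjusted p = 0.042). It was lost without young replicate 1, young replicate 2, aged replicate 1 or aged replicate 3, and with aged replicates 1 and 3 summed, and over the 20 other fits adjusted p ran from 0.0024 to 0.11. The smaller region (chr15:58938725-58939122) lies in the intron before that exon and had a log2 fold change of -1.02 (SE 0.28, adjusted p = 0.046), which did not pass with the offsets (adjusted p = 0.17). With these offsets a region inside Ndufs7, a complex I subunit gene, also passed as lower (log2 fold change -0.71, adjusted p = 0.049), which it did not with TMM (-0.54, adjusted p = 0.061), so that 2 of the 23 were called under either scaling. The promoter of Ndufb9 itself was at 37.5, 39.7 and 35.4 CPM in young and 32.2, 29.4, 30.1 and 35.6 CPM in aged liver, overlapping at aged replicate 4 (log2 fold change -0.24, adjusted p = 0.24).

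Other genes of the pathway, which the symbols leave out, were read from lists of assembly factors, electron carriers, transcription factors, mitochondrial DNA maintenance and coenzyme Q synthesis. Of 94 genes with a promoter region, 5 rose (against 4.48% of all promoter regions) and 0 fell with edgeR. The median log2 fold change was 0.18, and 0.02 with offsets fitted on mean abundance, where 1 of the 94 passed, Twnk, the mitochondrial helicase, as lower (adjusted p = 0.049; 0.46 with TMM). At an unadjusted p under 0.05, 27 were higher and 1 lower, against 23.0% and 9.13% of all promoter regions, and with DESeq2 10 rose and 0 fell, against 10.01% and 2.22%. Of the 3 electron carriers and subunits with a region, Cycs, which codes for cytochrome c, rose. It gave 56.1, 59.0 and 52.5 CPM in young and 76.2, 69.0, 79.8 and 69.4 CPM in aged liver, without overlap (log2 fold change 0.39, SE 0.11, edgeR adjusted p = 0.047). Of the 46 assembly factors, Cox19, a copper protein for complex IV, rose (0.43, adjusted p = 0.037), as did Acad9, which serves complex I (0.58, adjusted p = 0.048). Of the 16 genes of mitochondrial DNA transcription and replication Tfb1m rose (0.57, adjusted p = 0.029), and of the 13 genes of coenzyme Q synthesis Coq8a, a kinase-like protein, rose (0.62, adjusted p = 0.020).

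None of the 16 transcription factors and coactivators of OXPHOS genes passed with edgeR. Of the 16 values 15 were above 0 (10 with offsets fitted on mean abundance), against 61.1% of all promoter regions. At an unadjusted p under 0.05, 8 were higher, against 23.0%, and with DESeq2 2 rose, Creb1 and Nr1d1, against 10.01%. Nrf1 was at 0.11 (SE 0.11, edgeR adjusted p = 0.57), Gabpa, in the region of Atp5j, at 0.34 (SE 0.13, adjusted p = 0.13), Esrra at 0.29 (SE 0.12, adjusted p = 0.17) and Ppargc1a, the coactivator PGC-1 alpha, at 0.28 (SE 0.12, adjusted p = 0.17). The region of Atp5j and Gabpa gave 102, 94.1 and 72.8 CPM in young and 113, 98.5, 118 and 126 CPM in aged liver, where aged replicate 2 lay below young replicate 1.

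The tissue label was checked with marker genes. All 9 hepatocyte markers had a promoter region, with summed levels of 696 to 757 CPM in young and 836 to 977 CPM in aged liver, so the sum was higher in every aged library. Of the 9, 1 rose with edgeR, Apoa1, and 2 with DESeq2, Apoa1 and Cps1 (against 4.48% and 10.01% of all promoter regions), 5 were higher at an unadjusted p under 0.05 (against 23.0%), and all 9 log2 fold changes were above 0 (4 of 9 with offsets fitted on mean abundance). With these offsets 0 of the 9 were called, and Apoa1 had a log2 fold change of 0.08 (edgeR adjusted p = 0.77). Of the markers of other cells, 1 of 8 had a region for Kupffer cells (summed level 2.22 to 2.65 CPM in young and 0.59 to 2.80 in aged), 4 of 7 for sinusoidal endothelial cells (67.7 to 74.5 and 53.0 to 87.1), 4 of 7 for stellate cells (34.8 to 39.7 and 21.9 to 27.9), 3 of 5 for cholangiocytes (43.8 to 52.0 and 39.4 to 56.9) and 0 of 7 for lymphocytes. None of these 12 regions was called with edgeR or DESeq2, with 4 of 12 lower at an unadjusted p under 0.05 (against 9.13% of all promoter regions), and the stellate sum was lower in every aged library. The part of cell composition in the values above was not tested.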

How the data were processed

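The authors deposited raw counts for the 55680 regions in each library, without normalization. According to the labels and the study's methods, the authors trimmed reads with cutadapt 1.13, aligned them to GRCm38 with Bowtie2 2.4.1, removed duplicates and mitochondrial reads, called peaks per library with MACS2 2.2.7 and counted reads with featureCounts in regions with peaks in more than 1 library. Totals were 4474652 to 25461110 counts per library, and 0 columns were left unassigned. Among libraries of 1 age, the chi-square of counts per degree of freedom was 2.40 to 6.07, so none was a duplicate.

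Regions within 200 bp of a GENCODE M21 TSS were called promoters. Differential accessibility was fitted on all regions with edgeR 4.0.16 (R 4.3.3) by its quasi-likelihood test with TMM scaling and the age group as factor at an adjusted p of 0.05. Log2 CPM used a prior count of 2. GC content and motifs were read from GRCm38 with Python 3.11.15, and copies were sought with minimap2 2.31. Alternatives were DESeq2 1.42.0, total counts, TMM from promoters, loess offsets (span 0.3) on abundance or GC content, filterByExpr, leaving out each library, summing each pair of aged libraries, a replicate block, a threshold of 0.01, TSS ± 1000 bp, coding transcripts and 1 region per gene. Replicate numbers did not pair the libraries. Named genes were the called members, the extremes of change and level in each complex, the members without a region, isoform families and all of complex II. The members and lists were chosen with earlier results of these data known. P-values measure the spread between these libraries. The result of 1 further member, beside those named, is not reported here.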

Additional observations from a re-analysis of the deposited data

Results flagged for a closer look

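The groups of 4 aged libraries were examined for a library far from the other 3, at the 31 named regions and for the medians of the set and of its 6 classes, 38 in all. At Cox7a2, the liver form of a complex IV subunit, aged replicate 2 stood apart at 5.18 log2 CPM, while the other aged libraries were at 5.45 to 5.49 and the young libraries at 5.19 to 5.26. Chance alone would be expected to single out a library in about 5% of such groups. The library was also the lowest aged one at 42 of the 91 OXPHOS regions.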

How the results depend on the processing

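The count of OXPHOS regions that rose, 2 in the report, was 8 with DESeq2, 1 with total counts, 0 with offsets on mean abundance, 11 with offsets on GC content and 0 at a threshold of 0.01. Under the first 4 of these settings 10.01%, 1.52%, 0.188% and 13.8% of all promoter regions rose, against 4.48% in the report. With aged libraries summed in pairs it was 0 for replicates 1 and 3, 1 for 1 and 4, and 5 for 2 and 4, when 0.59%, 3.01% and 7.74% of promoter regions rose. The count that fell, 1 in the report, was 0 with offsets on mean abundance, with aged replicates 1 and 3 summed and at 0.01. Leaving out 1 library gave 0 to 4 that rose and 0 to 1 that fell. The cause was not tested.

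The OXPHOS median log2 fold change (0.09) was -0.030 with total counts, -0.015 with TMM from promoters and -0.047 with abundance offsets, and 0.058 to 0.112 without 1 library. In the same order of settings and then without 1 library, the medians were -0.042, -0.027, -0.081 and 0.013 to 0.111 for complex I, -0.048, -0.033, -0.058 and 0.026 to 0.127 for its assembly factors, -0.0093, 0.0053, -0.094 and 0.055 to 0.150 for complex II, 0.052, 0.067, 0.012 and 0.132 to 0.253 for III, -0.037, -0.023, 0.0099 and 0.018 to 0.124 for IV, and -0.030, -0.014, -0.064 and 0.058 to 0.130 for V. Complex IV moved to 0.178 with GC offsets, and to 0.09 with Ndufa4 added to it, a choice made after seeing the data. The OXPHOS median stayed within 0.02 of the promoter median under the 5 other scalings.

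The count of other pathway genes that changed (5) was 10 with DESeq2, 3 with total counts, 2 with TMM from promoters, 1 with abundance offsets, 15 with GC offsets, 0 at 0.01, 0 to 6 without 1 library, and 2, 0, 2, 1, 8 and 1 with aged replicates 1 and 2, 1 and 3, 1 and 4, 2 and 3, 2 and 4, and 3 and 4 summed. The counts of regions without overlap, 13 above and 7 below, were 6 and 14 with total counts, 8 and 13 with TMM from promoters, 2 and 15 with abundance offsets and 23 and 4 with GC offsets (of all promoter regions 10.3% and 14.7%, 12.5% and 14.0%, 5.38% and 9.23%, and 27.3% and 7.05%), settings chosen after seeing the data.

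With a replicate block, 2 regions rose and 1 fell and the OXPHOS median was 0.10. Libraries with the same number correlated at -0.12, 0.06 and 0.03, so the numbers were not taken as pairs. TSS ± 1000 bp, coding transcripts, 1 region per gene and filterByExpr changed neither count. Counts as low as 6 in a library limit what can be said of Cox6b2.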
